A study of Amaranthus palmeri with 48 samples.

Results

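The 200 genes described here are those whose RNA rose in leaves of Palmer amaranth (Amaranthus palmeri) after chlorsulfuron. Averaged over both plant lines, it stayed close to the controls after 2,4-D, atrazine and lactofen. With the limits below asked in each line, 70 of the 200 genes still met them. The genes were chosen from the measured values. Counts were scaled to a common library total (CPM), and genes at 1 CPM or more in all 18 control libraries with a control mean under 1000 CPM were kept. For each herbicide, d was the mean of log2(CPM + 1) in treated plants minus that in controls of the same line and batch, averaged over both lines. Members had d of 0.7 or more for chlorsulfuron and an absolute d under 0.5 for each of the other 3 herbicides, and the 200 highest by chlorsulfuron d were taken. Of 26353 gene models, 14303 passed the level filter, 2742 of them reached the chlorsulfuron limit, and 263 of those (9.59%) met every limit, so 63 genes lay beyond the cap.

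Leaf RNA was counted in 48 libraries, 3 with different plant numbers in each of 16 groups, sampled 6 h after spraying. The plants belonged to a resistant line, titled KCTR, and a susceptible line, titled KSS. Batch 1 held untreated plants and plants given 2,4-D or mesotrione, batch 2 untreated plants and plants given atrazine or chlorsulfuron, and batch 3 untreated plants and plants given lactofen, each in both lines. Chlorsulfuron and atrazine are therefore read against the same controls, and chlorsulfuron is set against 2,4-D and lactofen across batches. The chlorsulfuron plants were numbers 5, 7 and 8 of the resistant line and numbers 5, 6 and 7 of the susceptible line. The labels describe the lines only by phenotype and give no herbicide dose. Nothing in them says whether equal plant numbers in different treatments were 1 plant, so p-values measure the spread between these libraries.

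Chlorsulfuron is a sulfonylurea herbicide. It blocks acetolactate synthase, the enzyme that carries out the first shared step in the synthesis of the branched-chain amino acids valine, leucine and isoleucine, and growth of sensitive plants stops in the meristems. Tolerant crops such as wheat break the compound down by cytochrome P450 hydroxylation followed by conjugation to glucose. The other herbicides act elsewhere. The compound 2,4-D is a synthetic auxin, atrazine blocks electron transport in photosystem II, mesotrione blocks a step towards plastoquinone and tocopherol, and lactofen blocks protoporphyrinogen oxidase in tetrapyrrole synthesis. The count table lists its genes by identifier, without names or products, so no role can be given to any of the 200 genes, and the leaf label could not be set against marker genes. All 200 are mRNA models. In bulk leaf RNA, more RNA of a gene per cell and more cells that express it cannot be told apart.

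Some libraries stood apart. Library totals ran from 16583010 to 72979429 counts, and from 44999718 to 62829178 in batch 2. A set of 78 genes was on (at least 2 CPM) or off (at most 0.5 CPM) in every batch 1 library of each plant and differed between plants. Read at 1 CPM, it assigned 15 of the 18 batch 2 libraries to the plant in their title, at 92.3% to 100% of these genes. The 3 susceptible libraries of batch 2 titled plant 7 (control, atrazine and chlorsulfuron) instead matched plant 6, at 100%, 97.4% and 93.6%, and their own number at 52.6%, 52.6% and 48.7%. Their counts differed from those of plant 6 by far more than counting noise (chi-square per gene of 20.7 to 26.1), so they were not the same library deposited again, and they stayed in the fits. Whether they came from a plant of their own was not tested, so 3 separate plants are not established in the susceptible groups of batch 2. Plant numbers throughout are those of the titles. Values without these 3 libraries stand beside each count or call that leaving them out ends or moves by over 1.5 times.

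The members ranged from strong to modest responders. The highest chlorsulfuron d was 2.72, the median 0.87 and the lowest 0.7502. The first gene beyond the cap had 0.7497 and the last one that met the limits 0.7007. Of the 200, 53 had a d of 1 or more, 9 of 1.5 or more and 2 of 2 or more. The limits on the other herbicides were narrow in the same way: the largest absolute d of a member was 0.499 for 2,4-D, 0.495 for atrazine and 0.496 for lactofen, and the nearest genes outside stood at 0.501, 0.503 and 0.501. The gap between a member's chlorsulfuron d and its highest d for another herbicide had a median of 0.62 and ran from 0.18 to 2.60. It was 0.5 or more for 141 members and 1 or more for 22. All 4 other herbicides, mesotrione included, left 32 members within 0.25 of the controls. Untreated levels were moderate, with control means of 2.71 to 316 CPM, and no member had fewer than 38 counts in any library.

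Among the genes that reached the chlorsulfuron limit, lactofen was the bound most often missed. Of the 2742, d was 0.5 or more for lactofen in 2111, for atrazine in 1353 and for 2,4-D in 952. It was -0.5 or less in 99, 208 and 251. A single limit was missed by 729 genes, a pair of limits by 1005 and all 3 by 745.

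Read library by library on TMM-scaled CPM, the 200 genes were high in each of the 6 chlorsulfuron libraries. The median of their shifts in log2(CPM + 1) from the mean of their own controls was 0.75, 1.00 and 0.62 in resistant plants 5, 7 and 8. In susceptible plants 5, 6 and 7 it was 0.54, 0.98 and 0.88. Medians of the 18 control libraries lay between -0.14 and 0.17, so no chlorsulfuron library overlapped them. The median was -0.10 to 0.01 after 2,4-D, -0.08 to 0.12 after mesotrione, 0.01 to 0.30 after atrazine and 0.05 to 0.26 after lactofen. The resistant lactofen medians depended on the batch 3 controls: they were 0.12 to 0.15 without control 4, 0.01 to 0.08 without control 8 and 0.00 to 0.04 without control 1. Over all 14303 genes past the level filter, the median shift was -0.02 to 0.06 in chlorsulfuron libraries and -0.15 to -0.09 in lactofen libraries. The highest values outside chlorsulfuron belonged to susceptible plant 5 after atrazine and susceptible plants 3 and 7 after lactofen. These shifts restate the values that chose the genes and carry no test.

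**Figure D1:**
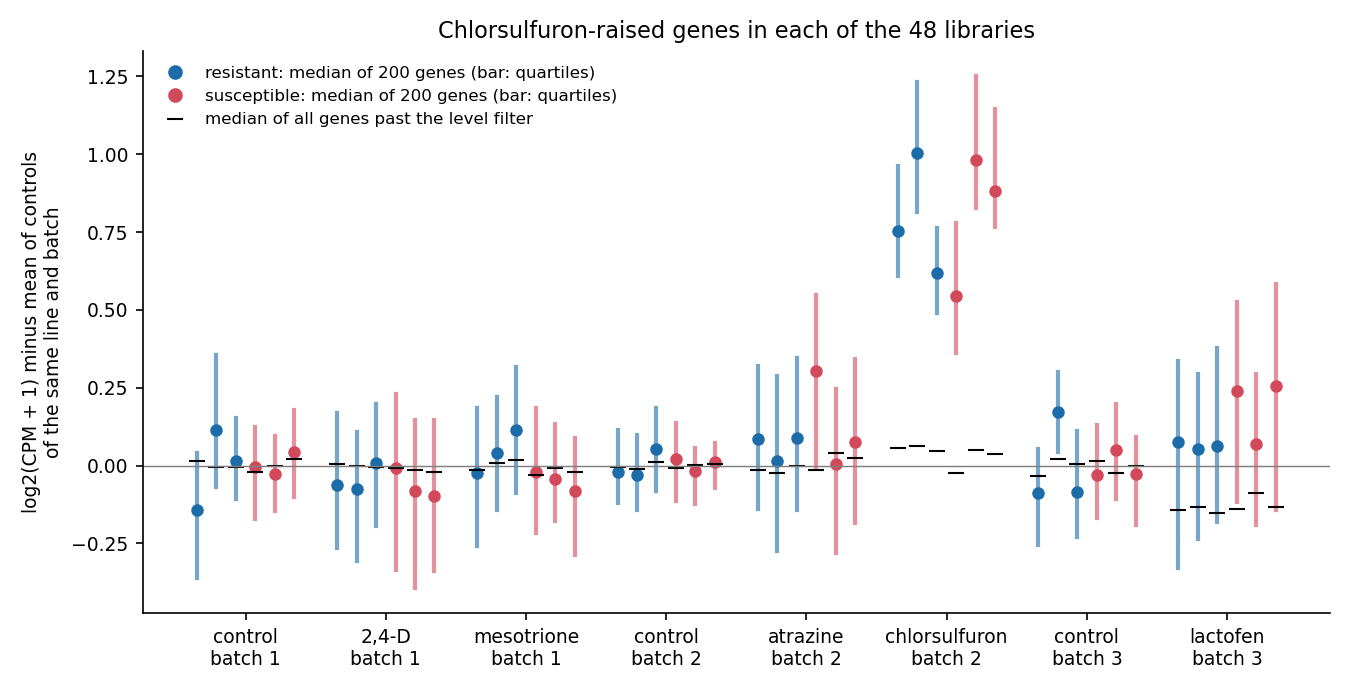
Median shift of the 200 genes in each of the 48 libraries, as log2(CPM + 1) minus the mean of controls of the same line and batch. Points are medians over genes, bars run from the lower to the upper quartile of genes, and black dashes are medians over all genes past the level filter. The 6 chlorsulfuron libraries lie between 0.54 and 1.00, above the other libraries, which end at 0.30.

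Single libraries were apart for most members. All 3 chlorsulfuron libraries lay above all 3 controls for 185 members in resistant plants, where the share over all eligible genes was 29.4%, and for 182 in susceptible plants, where it was 30.8%. For 70 members, all 6 chlorsulfuron libraries lay above the other 12 libraries of batch 2 (4% of eligible genes). For 24 members, they lay above all other 42 libraries of the series (0.545% of eligible genes). Since the rule used these values, the counts describe the choice and show nothing beyond it.

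Fitted over the whole table of 20645 genes with edgeR's quasi-likelihood test, chlorsulfuron raised 163 members in resistant plants and 176 in susceptible plants at an adjusted p under 0.05, and lowered none. Of all genes tested, 14.8% had a higher call and 11.8% a lower call in the resistant line, with 18.1% and 15% in the susceptible line. The members had a median log2 change of 0.81 in resistant and 0.88 in susceptible plants, against 0.03 and 0.05 over all genes. Scaling by total counts moved the median of all genes in susceptible plants to 0.18, and the members lay 0.83 above that median with TMM and 0.81 with total counts. Both lines gave a higher call for 152 members (12.2% of all genes), the resistant line alone for 11 (2.6%), the susceptible line alone for 24 (5.9%) and neither for 13 (79.3%). Without the 3 libraries titled plant 7 these numbers were 84, 70, 11 and 35 (8.08%, 5.63%, 1.79% and 84.5% of all genes). The rule used this contrast, so the calls, their direction and the medians describe the choice of the genes. The count in resistant plants fell to 78 without treated plant 7. In susceptible plants it fell to 113 without treated plant 6 and to 95, with a median of 0.83, without the 3 libraries titled plant 7.

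**Figure D2:**
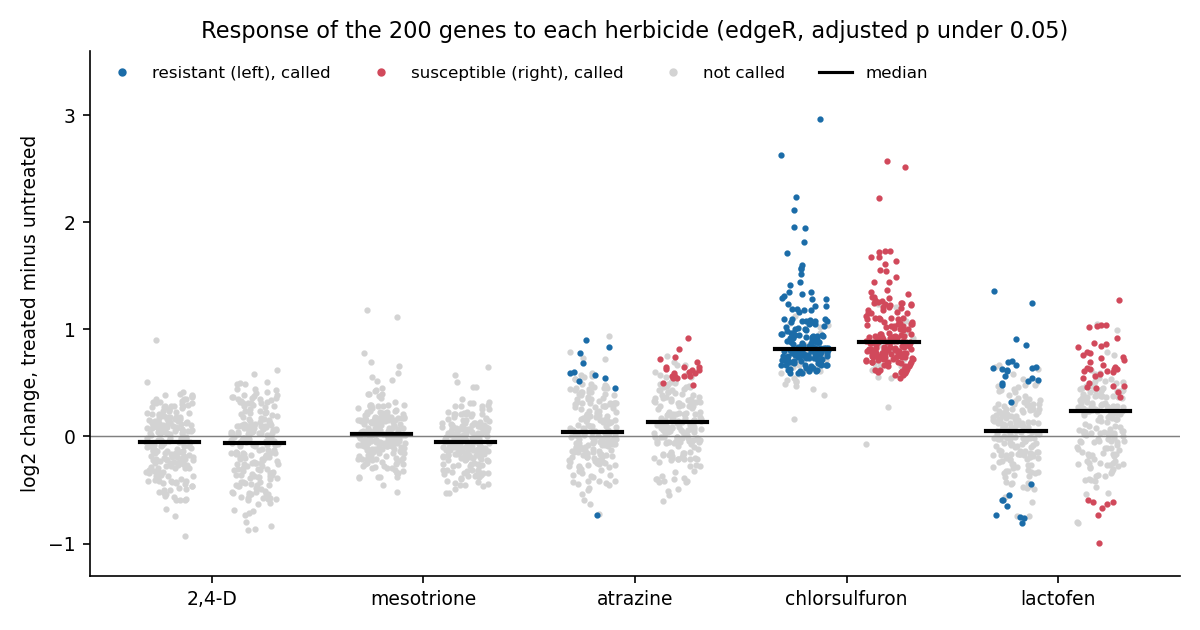
Fitted log2 change of each of the 200 genes, treated plants minus their own line's controls of that batch, for the 5 herbicides, with the resistant line on the left of each pair. Coloured points have an edgeR adjusted p under 0.05 and black bars are medians: 0.81 and 0.88 after chlorsulfuron, 0.05 and 0.24 after lactofen, 0.04 and 0.13 after atrazine.

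The gene with the highest d was AmaPaChr04Ag081610. In resistant plants 5, 7 and 8 it stood at 5.52, 6.27 and 13.8 CPM untreated and at 33, 64.5 and 102 CPM after chlorsulfuron. In susceptible plants 5, 6 and 7 it stood at 15.6, 34.7 and 48.7 CPM untreated and at 83.6, 283 and 199 CPM treated. Treated and untreated plants did not overlap in either line, but the plants differed widely among themselves. Resistant plant 8 was also high untreated in batch 1 (45.6 CPM) and after atrazine (41.2 CPM), above the lowest treated plant of its line. The log2 change was 2.97 ± 1.01 (SE, 3 libraries against 3, edgeR adjusted p = 0.028) in resistant and 2.52 ± 0.99 (edgeR adjusted p = 0.048) in susceptible plants. The resistant call was lost without treated plant 7 or 8 or without control 5 or 7 (edgeR adjusted p of 0.057 to 0.1, log2 change 2.45 to 2.94). The susceptible call was lost without treated plant 6 or 7 or without any 1 of the 3 controls (edgeR adjusted p of 0.069 to 0.16, log2 change 2.06 to 2.91). It was also lost without all 3 libraries titled plant 7 (edgeR adjusted p = 0.12), with DESeq2 size factors in edgeR (0.051) and with no filter on low counts (0.06). The gene was named for its chlorsulfuron d, so its p-values describe that choice.

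The second, AmaPaChr04Ag081650, was more even. Resistant plants 5, 7 and 8 held 9.78, 4.5 and 7.52 CPM untreated and 37.9, 40.4 and 15.9 CPM after chlorsulfuron. Susceptible plants 5, 6 and 7 held 9.29, 8.32 and 6.96 CPM untreated and 28.9, 47.9 and 38.1 CPM treated. Every treated plant was above every control of its line, with resistant plant 8 the lowest. The log2 change was 2.11 ± 0.39 (SE, edgeR adjusted p = 0.00018) in resistant and 2.23 ± 0.39 (edgeR adjusted p = 6.1e-05) in susceptible plants. Both calls held without each single library and under every other setting run, with adjusted p-values up to 0.0055, though this gene too was named for its d. After atrazine its highest library, susceptible plant 5, had 23.7 CPM, above resistant plant 8 after chlorsulfuron. The identifiers of these 2 genes carry the same chromosome label, 4, and are 40 numbers apart.

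**Figure D3:**
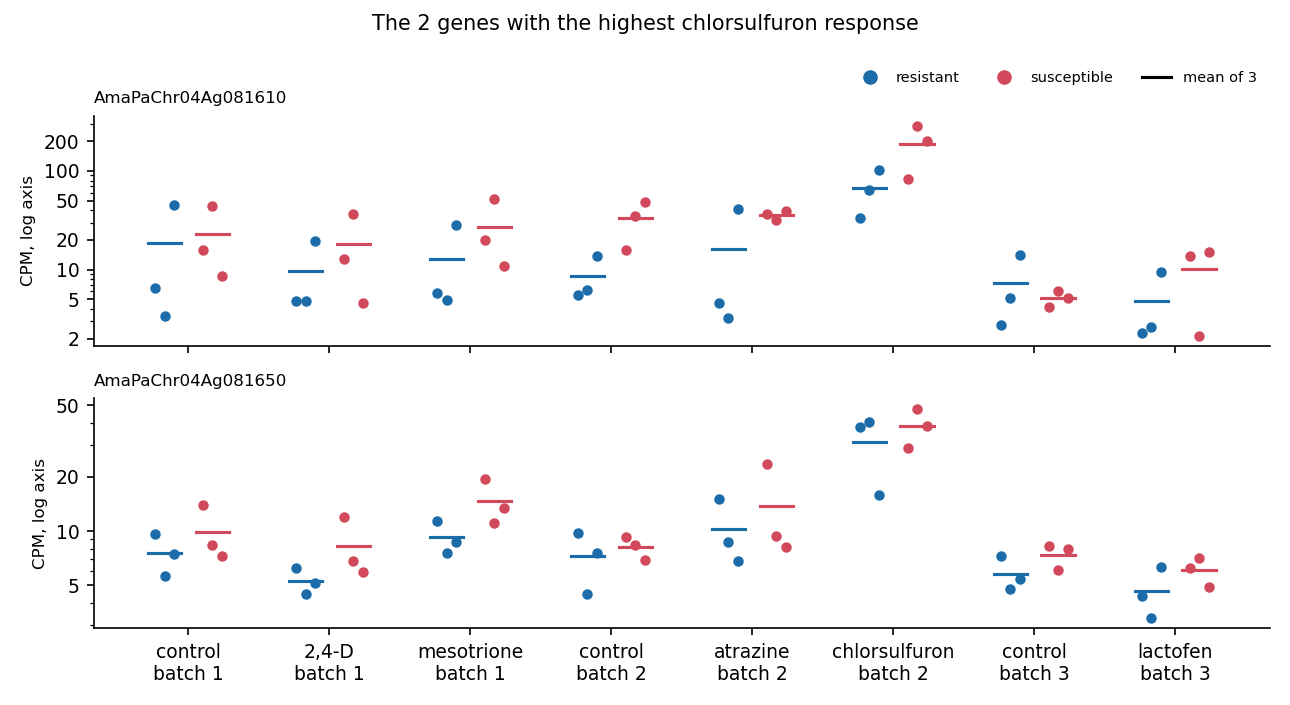
Level of AmaPaChr04Ag081610 and AmaPaChr04Ag081650 in each of the 48 libraries, as TMM-scaled CPM on a log axis, by treatment and batch. Points are plants and bars are means of 3. After chlorsulfuron the first gene reaches 33 to 283 CPM and the second 15.9 to 47.9 CPM.

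The bounds on the other herbicides applied to the mean of both lines, and single-line tests still called some members. After atrazine, 10 members were called higher and 1 lower in resistant plants (16.4% and 15.4% of all genes), and 23 higher and none lower in susceptible plants (20.6% and 15.4%). With the plant number as a replicate block these totals of 11 and 23 became 24 and 39. Only 1 was called higher in both lines (13.8% of all genes), and 0 without the 3 libraries titled plant 7 (11.7%). The resistant count of 11 fell to between 4 and 7 without treated plant 7 or 8 or control 5 or 8, and scaling by total counts gave 5 higher and 2 lower. The susceptible count fell to 15 without treated plant 7 and to 5 without the 3 libraries titled plant 7. After lactofen, 20 members were called higher and 9 lower in resistant plants (26.1% and 27.6% of all genes, 53.7% in all). Scaling by total counts gave 21 and 5, and DESeq2 size factors 30 and 5. In susceptible plants 36 were called higher and 7 lower (30.4% and 29.3% of all genes, 59.6% in all). That count became 68 without lactofen plant 5 and 28 without lactofen plant 7. Only 2 members were called higher after lactofen in both lines (22.1% of all genes), and 1 without the 3 libraries titled plant 7 (21.3%). The shares of members called higher or lower stood below those over all genes, which the bounds favour by construction.

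Within those bounds, the mean d over lines was above 0 for 140 of 200 members after lactofen, 102 after atrazine and 101 after 2,4-D. Of the 14303 eligible genes, 6785, 6483 and 8036 were above 0. The rule bounded these values, so the counts are a description. After 2,4-D, edgeR without a block called no member in either line, and with the plant number as a replicate block it called 1 in resistant and 9 in susceptible plants. Without the block there were 16 and 26 members at an unadjusted p under 0.05. DESeq2 gave 0 and 4 calls. Of all genes, 2.3% had a higher and 0.843% a lower call in the resistant line (3.14% in all). In the susceptible line the shares were 3.58% and 1.69% (5.27% in all). These shares belong to edgeR without a block. Counts at an unadjusted p, and counts under other settings here and below, mostly stand without such a share. Nothing particular to the members is read from them. Without the batch 1 control of resistant plant 5, edgeR called 7 members in resistant plants. Without that of susceptible plant 5 or the 2,4-D library of susceptible plant 7, it called 2 and 1 in susceptible plants. Averaged over both lines, a contrast added after the values were seen, 2 members were called higher and 14 lower after 2,4-D (8.58% and 7.65% of all genes). Total counts gave 3 and 5, and the replicate block 10 and 20. The total of 16 became 33 without the batch 1 control of resistant plant 5, 5 and 4 without those of resistant and susceptible plants 7, and 7 and 9 without the 2,4-D libraries of resistant and susceptible plants 5.

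Across the 6 tests of atrazine, lactofen and 2,4-D by line, 91 members were called in some test (76.6% of all genes) and 109 in none (23.4%). Of these 109, 73 were also called higher after chlorsulfuron in both lines (0.853% of all genes met both conditions). Of the 200, 33 members were called after atrazine in some line (42.2%), 70 after lactofen (67.9%) and 12 after both (34.3%). Without the 3 libraries titled plant 7, 73 members were called in some test (72.7% of all genes) and 127 in none (27.3%). Of these 127, 47 were called higher after chlorsulfuron in both lines (0.387% of all genes met both conditions). Atrazine then called 14 members (35.1% of all genes), lactofen 65 (66.0%) and both 6 (29.0%). The rule bounded all 3 herbicides, so nothing is read from these counts. Set directly against atrazine plants of the same batch, chlorsulfuron plants were called higher for 121 members in the resistant line (12.4% of all genes) and 115 in the susceptible line (11.8%). The first count was 68 without chlorsulfuron plant 7. The second was 76 without chlorsulfuron plant 6 and 53 without the 3 libraries titled plant 7. The rule used both herbicides, so these counts are a description.

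Mesotrione was the herbicide that the rule did not bound, although its batch 1 controls entered through 2,4-D. No member was called after mesotrione in either line or over their mean by edgeR without a block, and with the replicate block 1 was called, in resistant plants. At an unadjusted p under 0.05 stood 10 members in resistant plants, 5 in susceptible plants and 15 over the mean. DESeq2 called 1, 0 and 0. Calls were few over the whole table as well: 0% higher and 0.203% lower in resistant plants, 0% in susceptible plants, and 0.00484% higher and 0.063% lower over the mean (0.0678% in all). The members had a median log2 change of 0.02 in resistant and -0.06 in susceptible plants, against -0.02 and -0.02 over all genes. The median SE was 0.24 per gene, so small changes in single genes were not detectable.

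The mesotrione values of the members were close to those of other genes. The median d was 0.06, against 0.05 over all eligible genes. A d of 0.5 or more was reached by 5 members (2.5%), against 3.85% of eligible genes, and none had -0.5 or less. Treated libraries lay above all controls for 14 members in resistant plants (5.16% of eligible genes) and below them for 5 (5.57%). In susceptible plants these counts were 6 (5.91%) and 17 (6.8%). The highest mesotrione d, 0.66, belonged to AmaPaChr09Ag149790, named after its values were seen. It held 2.36, 6.43 and 1.73 CPM in controls of resistant plants 5, 7 and 8 and 9.99, 7.73 and 4.86 CPM after mesotrione. In susceptible plants 5, 6 and 7 it held 5.62, 3.22 and 4.09 CPM untreated and 4.41, 4.86 and 5.69 CPM treated. Treated and control plants overlapped in both lines, and its edgeR adjusted p was 1 in both.

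Levels after chlorsulfuron followed an order of plants across most of the list. The order is of levels, not of changes from each plant's own control. It was not counted over all eligible genes, so it is not read as particular to the members. In treated resistant plants, plant 7 was highest for 147 members and plant 8 lowest for 131. In treated susceptible plants, plant 6 was highest for 137 and plant 5 lowest for 158. In the batch 2 controls, resistant plant 8 was highest for 92 members and susceptible plant 5 for 92. Such an order also appeared outside chlorsulfuron. In batch 1 controls resistant plant 7 was highest for 108 members and plant 5 lowest for 117, in batch 3 controls resistant plant 4 was highest for 119, and after atrazine susceptible plant 5 was highest for 127. The median SD of log2(CPM + 1) among treated plants was 0.26 in the resistant and 0.29 in the susceptible line, against 0.21 and 0.24 over all eligible genes. Among untreated plants of batch 2 it was 0.19 and 0.13, against 0.22 and 0.15.

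Whether the lines responded differently to chlorsulfuron was not used by the rule. No member had a called difference by edgeR's interaction contrast, and none of the 20645 genes did (0%). At an unadjusted p under 0.05 stood 9 members, and DESeq2 called 0. The median difference, resistant minus susceptible, was -0.02 on the log2 scale. The median SE of a single gene was 0.34, so a line difference of that size in a single gene was not detectable. On the d scale, which uses column totals, d was larger in the susceptible line for 129 members, a count not made over all eligible genes. Over all genes tested, the median line difference was -0.06 with total counts and -0.002 with TMM. With TMM, the fitted change was larger in the resistant line for 44.5% of members. By d, 158 members reached 0.7 in both lines and 195 reached 0.5 in both. The other 5 members were high in 1 line only, 3 of them low in resistant plants (0.21 to 0.47) and 2 low in susceptible plants (0.00 to 0.39). The line differences were not called after atrazine, 2,4-D and mesotrione either, with 4, 0 and 2 members at an unadjusted p under 0.05 and none by DESeq2. Over all genes these contrasts called 0.00969%, 0% and 0.126%.

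**Figure D4:**
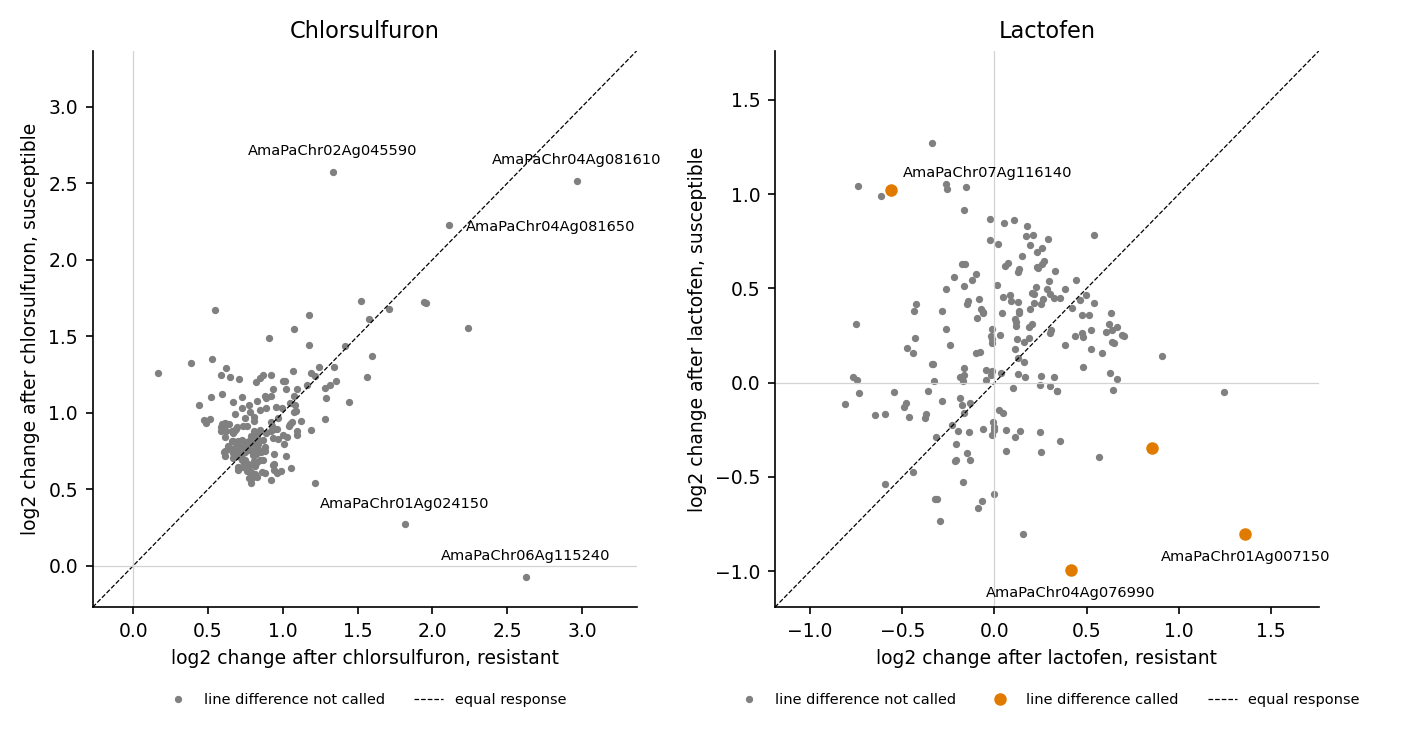
Log2 change of the 200 genes in resistant plants (horizontal) and susceptible plants (vertical) after chlorsulfuron and after lactofen. Each point is a gene, the dashed line marks equal responses, and orange points have an edgeR adjusted p under 0.05 for the line difference. No chlorsulfuron point is orange, and 4 lactofen points are.

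In each direction, the widest chlorsulfuron difference between the lines came from a few plants. The genes with these differences were named after their values were seen. A difference of 1.54 ± 0.46 (SE) in AmaPaChr01Ag024150, described below, was not of this kind, as every treated resistant plant lay far above its controls. AmaPaChr06Ag115240 held 4.58, 8.3 and 2.13 CPM in untreated resistant plants 5, 7 and 8 and 12.5, 74.8 and 5.22 CPM after chlorsulfuron, so plant 7 alone was far above the controls. In susceptible plants 5, 6 and 7 it held 3.88, 4.44 and 5.35 CPM untreated and 2.43, 5.01 and 5.58 CPM treated. The difference of the log2 changes was 2.69 ± 1.08 (SE, edgeR adjusted p = 1) and ran down to 0.87 when single libraries were left out. In the opposite direction, AmaPaChr02Ag045590 rose from 34.7, 23.4 and 23.2 CPM to 40.7, 256 and 187 CPM in susceptible plants 5, 6 and 7. In resistant plants 5, 7 and 8 it went from 22, 23.6 and 29.5 CPM to 60.9, 91.6 and 36.8 CPM. Susceptible plant 5 stood near its control while plants 6 and 7 were far above theirs. The difference was -1.24 ± 0.52 (SE, edgeR adjusted p = 1). It was -1.71 without treated susceptible plant 5, -0.75 without treated susceptible plant 6 and -1.02 without the 3 libraries titled plant 7.

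Treated plants of the lines were also compared in level. After chlorsulfuron, 1 member was called higher and 1 lower in resistant than in susceptible plants, where 0.543% and 0.334% of all genes were called. AmaPaChr02Ag028060 stood at 125, 144 and 96.4 CPM in treated resistant plants and at 72, 68 and 67.7 CPM in treated susceptible plants. The groups did not overlap, and the difference was 0.82 ± 0.16 on the log2 scale (SE, edgeR adjusted p = 0.0067). Its untreated plants of batch 2 lay close together, at 49.1 to 54.4 and 43.3 to 52.3 CPM. AmaPaChr01Ag009050 stood at 32.6, 21.3 and 30.6 CPM in treated resistant plants and at 58.3, 66.7 and 65.6 CPM in treated susceptible plants, a difference of -1.18 ± 0.26 (SE, edgeR adjusted p = 0.024).

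Both calls were fragile. The call of AmaPaChr02Ag028060 was lost without treated resistant plant 5 or 7 or treated susceptible plant 6 or 7 (log2 difference 0.66 to 0.77, edgeR adjusted p 0.051 to 0.099). The call of AmaPaChr01Ag009050 was lost without treated resistant plant 7 or 8 or treated susceptible plant 6 or 7 (log2 difference -1.27 to -1.03, edgeR adjusted p 0.065 to 0.11). Neither was called without the 3 libraries titled plant 7 (edgeR adjusted p of 0.11 and 0.14) or with total counts (0.079 and 0.051). The total count of called members was 6 without treated susceptible plant 5, 1 without any single treated resistant plant, and 0 without treated susceptible plant 6 or 7.

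Untreated plants of the lines differed in few of the 200 genes. Within batches 1, 2 and 3 edgeR called none, with 12, 13 and 20 members at an unadjusted p under 0.05 and DESeq2 calling 1, 0 and 2, where 0.0291%, 0.111% and 0.165% of all genes were called by edgeR. Without control 8 of the resistant line in batch 3, which had the lowest TMM factor of all libraries (0.643), 1 member was called there. Over the mean of the 3 batches, 4 members were called higher and 2 lower in resistant plants (1.91% and 1.14% of all genes). This fit took equal-numbered controls of batches 1 and 2 as independent libraries. In the on/off genes, 15 of the 18 batch 2 libraries matched their batch 1 number, so the pooled p-values may be too small. The 6 members, 3% of the list, were near the 3.05% of all genes called in either direction. The number was 3 without any 1 of the batch 1 controls of susceptible plants 5 and 6, the batch 2 control of resistant plant 5, or the batch 2 controls of susceptible plants 5 and 7. It was 4 with the plant as a correlated block in limma-voom, and 4, 2 in each direction, without the 3 libraries titled plant 7.

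AmaPaChr01Ag009050 was the most different of these by log2 size. Its untreated levels in batches 1, 2 and 3 were 15.9 to 24.1, 12.4 to 25.9 and 17.5 to 35.7 CPM in resistant plants, and 38 to 58.4, 26.7 to 41 and 38.3 to 45.9 CPM in susceptible plants, so the lines did not overlap within any batch. The pooled difference was -0.87 ± 0.15 (SE, edgeR adjusted p = 0.00065). After chlorsulfuron the gene was called higher in susceptible plants (log2 change 0.96 ± 0.26, edgeR adjusted p = 0.0047), while in resistant plants its log2 change was 0.51 ± 0.26 (edgeR adjusted p = 0.15). Without the 3 libraries titled plant 7 the susceptible change was 0.81 ± 0.33 (edgeR adjusted p = 0.083), and with the replicate block the resistant change was 0.55 ± 0.17 (edgeR adjusted p = 0.017). The line difference of that response was -0.45 ± 0.37 (SE, edgeR adjusted p = 1).

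AmaPaChr10Ag171770 was higher in untreated resistant plants, at 24.6 to 40.2, 33.7 to 59.5 and 32.6 to 50.2 CPM in batches 1, 2 and 3 against 23 to 27, 25.4 to 27.6 and 19.9 to 30.2 CPM. The lines overlapped in batch 1 only, and the pooled difference was 0.59 ± 0.11 (SE, edgeR adjusted p = 0.0026). AmaPaChr03Ag054220 stood at 5.08 to 6.99, 5.16 to 7.22 and 3.59 to 7.09 CPM in untreated resistant plants and at 3.76 to 4.21, 3.68 to 4.56 and 3.08 to 3.58 CPM in susceptible plants. The lines did not overlap within any batch, though only just in batch 3, and the pooled difference was 0.61 ± 0.14 (SE, edgeR adjusted p = 0.013). These 2 calls and that of AmaPaChr01Ag009050 held without each single control and under every other setting run.

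AmaPaChr01Ag024150 was lower in untreated resistant plants. In batch 2 it held 102, 139 and 91.3 CPM in untreated resistant plants 5, 7 and 8 and 187, 162 and 194 CPM in untreated susceptible plants 5, 6 and 7. After chlorsulfuron it held 407, 288 and 474 CPM in the resistant and 255, 225 and 176 CPM in the susceptible plants. The order of the lines was thus opposite in treated plants, where the difference was 0.83 ± 0.33 (SE, edgeR adjusted p = 0.27). The pooled untreated difference was -0.70 ± 0.19 (SE, edgeR adjusted p = 0.033). The call was lost without any 1 of 10 controls, which were resistant 5 and 7 and susceptible 5 and 6 of batch 1, resistant 5 and 8 and susceptible 5 and 7 of batch 2, and susceptible 3 and 7 of batch 3 (edgeR adjusted p 0.052 to 0.074). It was also lost under 2 of the 8 other settings run. The chlorsulfuron change was 1.81 ± 0.34 in resistant plants (SE, edgeR adjusted p = 0.0002) and 0.27 ± 0.33 in susceptible plants (edgeR adjusted p = 0.57). The difference of 1.54 ± 0.46 between these changes had an unadjusted p of 0.0021 and an edgeR adjusted p of 0.97 over all genes.

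**Figure D5:**
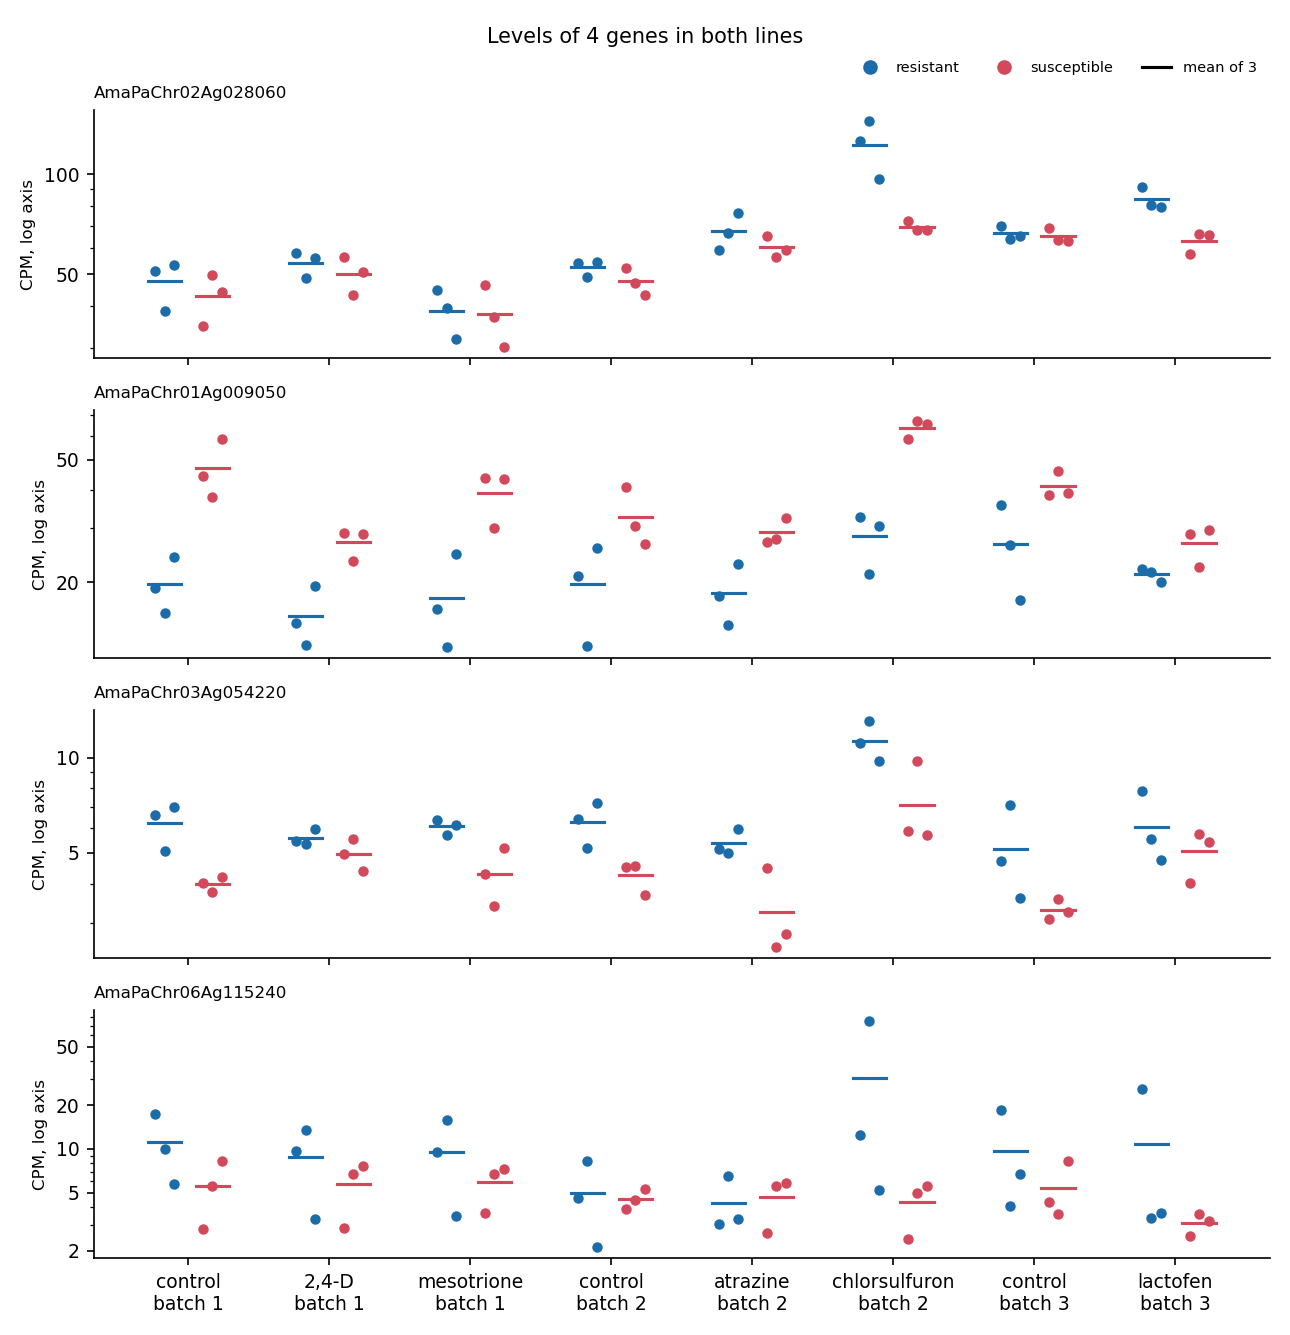
Levels of AmaPaChr02Ag028060, AmaPaChr01Ag009050, AmaPaChr03Ag054220 and AmaPaChr06Ag115240 in each library, as TMM-scaled CPM on a log axis. Points are plants and bars are means of 3. AmaPaChr01Ag009050 is lower in resistant than in susceptible plants in every batch of controls, and AmaPaChr06Ag115240 is high after chlorsulfuron in resistant plant 7, at 74.8 CPM.

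For lactofen, which the rule bounded only as a mean of the lines, the line difference of the response was called for 4 members. It was higher in resistant plants for 3 and lower for 1, where 1.09% and 1.18% of all genes were called, so 2% of the list stood near the 2.26% of all genes called in either direction. Across the list the median difference, resistant minus susceptible, was -0.18, against -0.05 over all genes. AmaPaChr01Ag007150 held 12.8, 20.3 and 44 CPM in untreated resistant plants 1, 4 and 8 and 96.4, 66.1 and 35.3 CPM after lactofen. In susceptible plants 3, 5 and 7 it held 31.2, 55.7 and 111 CPM untreated and 51.6, 10.6 and 50.9 CPM treated. Treated and untreated plants overlapped in both lines, and the line difference was 2.16 ± 0.58 (SE, edgeR adjusted p = 0.04). The lactofen change was 1.36 ± 0.41 in resistant plants (SE, edgeR adjusted p = 0.0058) and -0.80 ± 0.41 in susceptible plants (edgeR adjusted p = 0.089). In resistant plants its chlorsulfuron change was 1.29 ± 0.41, so this gene was not raised by chlorsulfuron alone in that line.

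The other 2 named members had lower or more even levels. AmaPaChr04Ag076990 held 7.53, 10.7 and 11 CPM untreated and 12.6, 12.6 and 13.8 CPM after lactofen in resistant plants 1, 4 and 8. In susceptible plants 3, 5 and 7 it went from 8.16, 13.6 and 10.2 CPM to 3.69, 8.25 and 4.14 CPM. The line difference was 1.40 ± 0.36 (SE, edgeR adjusted p = 0.029), and only the susceptible groups overlapped. AmaPaChr07Ag116140 went from 19.1, 31.2 and 17.5 CPM to 14.2, 12.2 and 19.5 CPM in resistant plants and from 16.2, 18.5 and 24.1 CPM to 55.2, 20.3 and 44.2 CPM in susceptible plants. The groups overlapped in both lines, and the line difference was -1.59 ± 0.39 (SE, edgeR adjusted p = 0.024).

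Single libraries decided these lactofen calls. The number of called members was 0 without resistant lactofen plant 1, 1 without resistant control 4, and 2 without resistant lactofen plant 4, susceptible control 3 or 5, or susceptible lactofen plant 3 or 7. It was 8 without resistant lactofen plant 8, 18 without susceptible lactofen plant 5, and 0 with batch 3 fitted alone. AmaPaChr01Ag007150 was not called without resistant control 1 or 4, resistant lactofen plant 1 or 4, or susceptible control 7 (log2 difference 1.61 to 2.16). AmaPaChr04Ag076990 was not called without resistant control 1, resistant lactofen plant 1, susceptible control 5 or susceptible lactofen plant 3 or 7 (1.18 to 1.43). AmaPaChr07Ag116140 was not called without resistant control 4, resistant lactofen plant 1 or 4, susceptible control 3 or 5, or susceptible lactofen plant 3 or 7 (-1.55 to -1.27).

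Chlorsulfuron was read against the untreated plants of batch 2. Their levels differed from the mean of batches 1 and 3 for 26 members, 11 higher and 15 lower (7.81% and 7.62% of all genes), with a median log2 difference of 0.03, against -0.02 over all genes. Scaling by total counts gave 30 higher and 6 lower, with medians of 0.18 and 0.13. The number called was 16 without resistant control 8 of batch 2 and 17 without susceptible control 6 of that batch. These controls entered the rule, so the counts are a description.

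By the chromosome labels inside the identifiers, the members were spread over the whole set. They made up 1.40% of the eligible genes. The share ran from 0.584% for label 16, with 4 members, to 2.14% for label 11, with 16. There were 10 pairs of members, 20 genes in all, whose identifiers lay within 50 numbers of each other under the same label, and 3 of these pairs were 10 numbers apart. AmaPaChr04Ag081610 and AmaPaChr04Ag081650 formed 1 of them. Pairs among all eligible genes were not counted, so the number of pairs is not read as particular to the members. Identifier distance is not a distance along the chromosome. Counting can split reads between near-identical copies, which would make their values uncertain. Whether any pair held such copies was not tested.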

How the data were processed

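The deposited table holds whole-number read counts per gene model, unscaled, 1 column per library. STAR, Trimmomatic, FastQC and DESeq2 appear in the submitters' processing notes. The genome build, annotation and strand setting were not given in the sources used here. Of the nonzero counts, 99.1% were even, so a fragment usually adds 2. The table has 24873 mRNA and 1480 tRNA models, and a row naming no gene held 0 counts. Identifiers are printed without their transcript suffix.

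Values were computed in R 4.3.3 with edgeR 4.0.16, limma 3.58.1 and DESeq2 1.42.0. All 48 libraries entered a single edgeR quasi-likelihood fit (robust, TMM factors, filterByExpr by group), with 1 mean per group, 20645 genes and 32 residual degrees of freedom. P-values were Benjamini-Hochberg adjusted over these genes and called under 0.05. The common biological coefficient of variation was 0.46. CPM levels use TMM factors, while d uses column totals. Fits without 1 library kept the tested genes and trended dispersions of the full fit. The edgeR test was checked on simulated counts of independent libraries with a lower dispersion than in these data. That check does not cover the spread or the pairing of the real libraries. Correlations of deviations from group means exceeded 0.1 in every same-numbered pair in 9 of 10 treated and control pairs of groups. The exception was lactofen in susceptible plants, and elsewhere the title numbers were taken to pair libraries. For chlorsulfuron in susceptible plants, a pair of different numbers reached 0.43, above the lowest same-numbered pair at 0.22, so the numbers paired these libraries only in part.

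The members and gene lists were chosen with earlier results of these data known. Per comparison, at most 2 members higher and 2 lower are named: for chlorsulfuron the 2 with the highest d, otherwise the called members with the largest log2 change whose higher group mean reached 5 CPM. Others are said to be named later. Product-name lists could not be applied. Alternatives were other size factors, no filter, fragment counts, the blocked fit, batches alone, DESeq2 and left-out libraries.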

Additional observations from a re-analysis of the deposited data

Results flagged for a closer look

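The members whose response differed between the lines by edgeR's interaction contrast were all found after lactofen, where 4 were called. The 3 named by the rule on named genes had differences, resistant minus susceptible, of 2.16 for AmaPaChr01Ag007150, 1.40 for AmaPaChr04Ag076990 and -1.59 for AmaPaChr07Ag116140 on the log2 scale. Their levels and the libraries that decide these calls are given above. The values of AmaPaChr01Ag007150 in untreated plants of batch 3 spread from 12.8 to 111 CPM, against 20.2 to 33.1 CPM in the other batches, and the part of this spread in the result was not tested.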

How the results depend on the processing

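The number of genes meeting the rule was 263. It was 156 with TMM library sizes (139 of the 200 members still met it), 164 with an absolute d under 0.4 (121), 75 with the limits asked in each line (70) and 228 to 303 without single libraries. Among 200 members, the alternatives below moved counts of calls by over 1.5 times. The cause was not tested. Counts under these alternatives, and counts at an unadjusted p under 0.05, mostly stand without the share over all genes. Nothing particular to the members is read from them.

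With the replicate block, counts were 24 for atrazine in resistant and 39 in susceptible plants, 1 and 9 for 2,4-D, 30 for 2,4-D over both lines, and 1 for mesotrione in resistant plants. No paired analysis was possible for levels compared between lines within a batch because plants are nested in lines. Line differences of a response were blocked, with 5 calls for lactofen and 0 for each other herbicide. In susceptible lactofen plants the numbers did not pair the libraries, and in susceptible chlorsulfuron plants they did so only in part. The block changed no other count by over 1.5 times; it gave 181 and 192 for chlorsulfuron. Total counts gave 7 and 12 for atrazine, 8 for 2,4-D over both lines, 1 for mesotrione in resistant plants and 0 for the line difference in chlorsulfuron-treated plants. DESeq2 gave 19 for atrazine in resistant plants, 4 for 2,4-D in susceptible plants, 1 for mesotrione in resistant plants, 6 for treated plants, and 1 and 2 for untreated plants of batches 1 and 3. With the batch alone, counts were 1 and 28 for 2,4-D in susceptible plants and over both lines, 1 for mesotrione in resistant plants, 9 and 20 for lactofen, and 0 for the lactofen line difference. Without the 3 susceptible libraries titled plant 7, counts were 95 for chlorsulfuron, 5 for atrazine, 53 for chlorsulfuron against atrazine, 0 for treated plants, 4 for pooled untreated plants and 20 for batch 2 controls. Without resistant control and lactofen libraries 8 of batch 3, an alternative chosen after seeing the data, the lactofen line difference had 9 and untreated plants of batch 3 had 1.

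Leaving out single libraries gave 78 to 137 and 113 to 165 calls for chlorsulfuron in resistant and susceptible plants, 4 to 9 and 15 to 22 for atrazine, 22 to 27 and 28 to 68 for lactofen, 0 to 7 and 0 to 2 for 2,4-D and 4 to 33 for 2,4-D over both lines. Mesotrione and the line differences for chlorsulfuron, atrazine, 2,4-D and mesotrione stayed at 0 to 0. The lactofen line difference had 0 to 18, treated plants 0 to 6, untreated plants 3 to 7 pooled, 0 to 0 in batches 1 and 2 and 0 to 1 in batch 3, batch 2 controls 16 to 30, and chlorsulfuron against atrazine 68 to 111 and 76 to 132. No named gene changed direction under these settings. The lowest count of a member was 38, and a fragment usually adds 2. The parts of counting error and plant spread in the precision were not tested.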
